A study of Mus musculus with 3 samples.

Results

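The genes described here are the fibroblast growth factor (FGF) ligands, their receptors and docking proteins, and the genes that restrain or carry out the ERK signal those receptors start. They were taken by symbol from the platform's probe annotation: the numbered Fgf genes, Fgfr1 to Fgfr4, Fgfrl1, Fgfbp1, Fgfbp3, Frs2, Frs3, Spry1, Spry3, Spry4, the Spred genes, the numbered Dusp genes and Etv1 to Etv6, without Etv4 and Dusp1. A value on all 3 arrays was required, which gave 57 genes, measured by 61 probes, out of 14047 genes. Frs2, Spry3, Spred3, Dusp5, Dusp7 and Dusp9 are not analysed here. The RNA came from CD1 mouse embryos, normal and with both sexes pooled. The tissue was microdissected and its RNA amplified. Each of 3 two-colour arrays carried metanephric mesenchyme, the tissue the kidney forms from, at 10.5 days post coitum (dpc) as channel 1 and whole metanephroi, the early kidneys, at 11.5 dpc as channel 2. Arrays 1 and 2 had the dye order red/green and array 3 had green/red, with no common reference. The labels give no separate dissections for the arrays, so the spread, the p-values and the intervals measure only differences between these arrays, which may be technical.

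FGFs bind receptor tyrosine kinases on the cell surface together with heparan sulfate, and the receptors pass the signal through FRS docking proteins to RAS and the kinase ERK. ERK switches on its own brakes, among them Sprouty and Spred proteins and the phosphatase DUSP6, as well as the PEA3 group of ETS transcription factors. In the developing kidney, FGF9 and FGF20 keep nephron progenitors alive, FGF8 acts in the first nephrons, FGF7 and FGF10 act on the ureteric bud through FGFR2, and Sprouty1 holds back budding.

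A value below is a log2 ratio of the channels of an array as the authors normalized it, so 0 stands for equal signal and 1 for a doubling. The labels do not say which tissue is the numerator. The words positive and negative below give the sign of a ratio without naming the tissue with more RNA. Array 3 was taken as already turned to the direction of the others, because its ratios correlated weakly above 0 with theirs across 19660 gene probes, which are not independent replicates. The Pearson correlation of array 3 was 0.0517 with array 1 and 0.0148 with array 2, against 0.324 between arrays 1 and 2. Spearman's correlation was higher, 0.211 and 0.171 for array 3 with arrays 1 and 2 and 0.466 between those. Of all genes, 9.11% had every array at least 0.5 in size on one side. At that size, 3.30% had array 3 opposite to both others. The share of all genes at an unadjusted p under 0.05 by limma was 19.6% as deposited and 5.55% with array 3 turned. Both shares were thus larger in the direction taken here. The labels do not settle the direction of array 3. Means with array 3 turned are therefore printed below for the genes at an unadjusted p under 0.05 and for some others. Signal strengths of the spots were not used here, so it is not known which genes were above background, and a ratio near 0 can belong to a gene that neither tissue expressed. In tissue RNA, fewer cells of a type and less RNA per cell cannot be told apart.

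Across the 57 genes, ratios were small and the arrays often disagreed. The median of their mean ratios was -0.09, beside -0.002 for all genes, and 23 means were positive and 34 negative. By limma, with Benjamini-Hochberg adjustment over all genes, 0 of the 57 genes passed an adjusted p of 0.05, as did 0% of all genes, and the smallest adjusted p among them was 0.149. At an unadjusted p under 0.05 by the same test there were 7 of them, or 12.3%, while 19.6% of all genes reached it. On the positive side were 2 of the 57, Fgf6 and Dusp22, beside 9.89% of all genes, and on the negative side 5, Etv2, Fgf23, Fgf2, Dusp6 and Dusp14, beside 9.69%. The count was 3 without array 1, beside 8.23% of all genes, 3 without array 2, beside 10.3%, and 10 without array 3, beside 21.0%. Only Etv2 was among them whichever array was left out. With array 3 turned the count was 6, beside 5.55% of all genes, and none of the 7 genes was among those 6. Those 6 genes had array 3 opposite to both others, where turning it enlarges the mean and narrows the spread by arithmetic. The 7 genes had the same sign on every array, where turning does the reverse, so this exchange does not measure how firm they are. The 7 genes then had unadjusted p-values from 0.151 to 0.978 by limma, and Fgf23 was the one that changed sign. Their means with array 3 turned were -0.50 for Etv2, -0.64 for Fgf2, -0.55 for Dusp6, -0.09 for Dusp14, 0.02 for Fgf23, 0.33 for Dusp22 and 0.28 for Fgf6. An exact test that turns the signs of 3 arrays cannot go below a two-sided p of 0.25, so it cannot call any single gene here.

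All 3 arrays gave one sign for 21 of the 57 genes, or 36.8%, beside 45.5% of all genes. Of these, 8 were positive, beside 22.9% of all genes, and 13 negative, beside 22.5%. A mean ratio of at least 1 in size, a 2-fold difference, was reached by 3 of them, Etv2, Etv3 and Fgf23, which is 5.26% beside 8.06% of all genes. The SD over the arrays had a median of 0.47 for the 57 genes and of 0.34 for all genes.

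**Figure D1:**
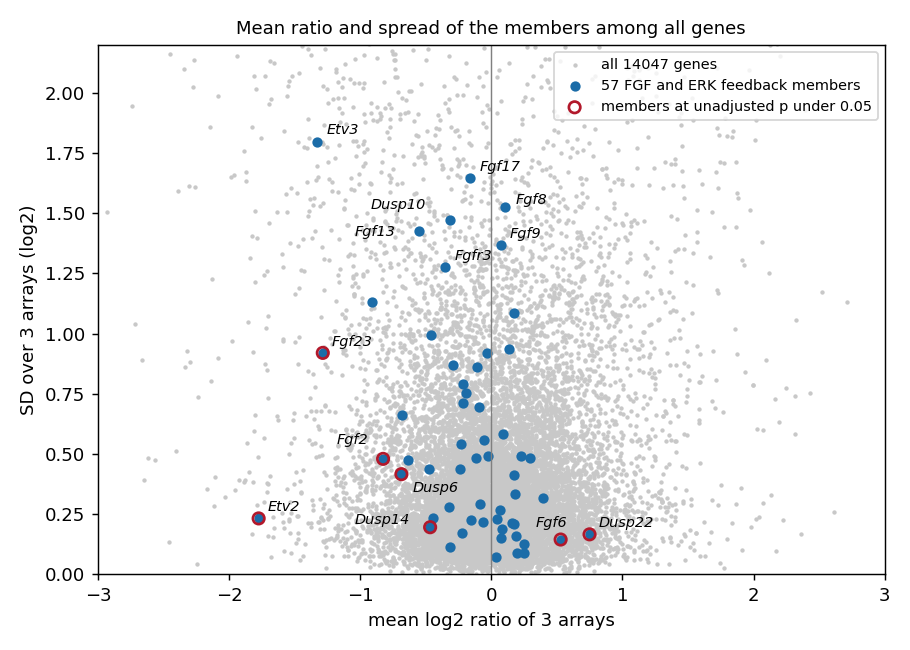
Mean log2 ratio of the 3 arrays (horizontal) against the SD over the arrays (vertical, log2) for all 14047 genes in grey and the 57 FGF and ERK feedback genes in blue, with red rings at an unadjusted p under 0.05 by limma. Etv2 stands at -1.77 with an SD of 0.23, while Fgf17, Fgf8, Dusp10, Fgf13, Fgf9 and Fgfr3 have means from -0.55 to 0.11 with SDs from 1.28 to 1.65; 406 genes outside the axes are not drawn.

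Among the 18 secreted ligands, 13 had a positive mean ratio, or 72.2%, where 49.8% of all genes did, and their median was 0.10. Of these ligands 5 had the same sign on every array, or 27.8%, beside 45.5% of all genes. With array 3 turned, Fgf3, Fgf4, Fgf10, Fgf20 and Fgf21 had negative means and Fgf22 and Fgf23 positive ones. Fgf2, a ligand without a classical signal peptide, had log2 ratios of -1.04, -1.16 and -0.28 on arrays 1, 2 and 3, and a mean of -0.83 ± 0.48 (SD, n = 3). All 3 arrays were negative, with array 3 the nearest to 0, and by limma the unadjusted p was 0.028 and the adjusted p 0.208. Its closest relative Fgf1 lay on the other side, at 0.11, 0.29 and 0.35, with a mean of 0.25 ± 0.13. The Fgf1 value joins 2 probes, which had means of 0.26 and 0.24.

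Fgf6, a ligand known mainly from skeletal muscle, had 0.58, 0.64 and 0.37, a mean of 0.53 ± 0.14, which is 1.44-fold. Its arrays were all positive and close together, with an unadjusted p of 0.0238 and an adjusted p of 0.197 by limma. The median of the list of somite and muscle markers lay on the opposite side, at -0.77. Of its 10 measured genes, 5 were negative at an unadjusted p under 0.05 by limma, beside 9.69% of all genes. At that level 1 gene of the list was positive, Meox2 at 0.62, beside 9.89% of all genes. Fgf23, the hormone of phosphate balance, had -0.24, -1.66 and -1.96, a mean of -1.29 ± 0.92. Arrays 2 and 3 carried that value, and array 1 was near 0. The unadjusted p was 0.037 and the adjusted p 0.226 by limma, and with array 3 turned the mean was 0.02. In the RefSeq gene table of assembly GRCm38.p6, Fgf6 and Fgf23 are direct neighbours on chromosome 6, with 0 protein-coding genes between them, and they lay on opposite sides of 0 on every array.

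The FGF7 group holds ligands of the FGFR2 form found in epithelium. Fgf7 had 0.24, 0.34 and 0.16, a mean of 0.25 ± 0.09, with all arrays positive and an unadjusted p of 0.149 by limma. Its 95% confidence interval ran from -0.14 to 0.64, whose further end is 1.55-fold. Fgf10, a mesenchymal ligand of the budding epithelium, had 0.07, -0.19 and 0.62, a mean of 0.17 ± 0.41. Its arrays lay on both sides of 0, and the interval ran from -0.45 to 0.79, whose further end is 1.72-fold. Fgf22 was the lowest of this group, at -0.69, 0.60 and -0.55, a mean of -0.21 ± 0.71. Fgf3 had a mean of 0.03 ± 0.07, with every array within 0.11 of 0.

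The ligands best known from nephron progenitors, Fgf9 and Fgf20, differed widely between arrays. Fgf9 had 0.97 and 0.75 on arrays 1 and 2 and -1.50 on array 3, so that its mean was 0.07 ± 1.37. With array 3 turned the mean was 1.07 ± 0.39, at an unadjusted p of 0.0104 and an adjusted p of 0.750 by limma. Fgf20, of the same group, had 0.73, -0.95 and 0.62, a mean of 0.13 ± 0.94. Here array 2 stood apart, and without it the mean was 0.67. Limma then gave an unadjusted p of 0.0434 and an adjusted p of 0.4765. Leaving out the array that stands apart, picked after its value was seen, narrows the spread by arithmetic. Fgf16, the third of the group and its highest, had 0.32, 0.42 and -0.20, a mean of 0.18 ± 0.33.

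Fgf8, which the forming nephron needs, had -0.25, 1.78 and -1.21, a mean of 0.11 ± 1.53. No arrays of this gene lay close together, and the interval ran from -1.74 to 1.95, whose further end is 3.86-fold. Fgf17, a close relative, had -0.53, -1.59 and 1.64, a mean of -0.16 ± 1.65. Arrays 1 and 2 were negative and array 3 positive. Fgf18 had a mean of 0.07 ± 0.27. In the FGF4 group, next to Fgf6, Fgf4 had 0.29 ± 0.48 and Fgf5 was the lowest, at -0.08, 0.74 and -0.39, with a mean of 0.09 ± 0.58. Of the endocrine ligands, Fgf15 had -0.23 ± 0.54, and Fgf21 was the highest at -0.50, -0.40 and 1.43, with a mean of 0.18 ± 1.09. Fgf3, Fgf4 and Fgf15 follow each other on chromosome 7 in the same RefSeq table, and their means of 0.03, 0.29 and -0.23 had no common side. Spry4 and Fgf1, and Fgf2 and Spry1, lie near each other with 2 protein-coding genes between them, and each pair shared a side, at 0.23 and 0.25 and at -0.83 and -0.44.

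The 4 FGF homologous factors, which stay inside the cell and bind sodium channels, all had negative means. Fgf13 had -1.19 and -1.54 on arrays 1 and 2 and 1.09 on array 3, a mean of -0.55 ± 1.43. Fgf14 had -0.55, -0.87 and -0.01, a mean of -0.48 ± 0.44, and was the one member of this group with every array on the same side. Fgf12 was the highest, at 0.20, -0.89 and 0.41, a mean of -0.09 ± 0.69, and its mean was positive with a dye term, at 0.03, and without array 2, at 0.30. Fgf11 had -0.16 ± 0.23, from probes with means of -0.02 and -0.29. Over all genes 50.2% had a negative mean. The secreted carriers Fgfbp1 and Fgfbp3, which release FGFs from the matrix, had -0.06 ± 0.56 and -0.19 ± 0.75, and in each the sign of array 1 was opposite to the others.

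None of the 5 receptor genes reached an unadjusted p under 0.05 by limma, which 19.6% of all genes did, and their intervals differed widely in width. Fgfr1, the main receptor of the mesenchyme, had 0.30, -0.03 and -0.02, a mean of 0.08 ± 0.19. Arrays 2 and 3 were at 0 and array 1 a little above it. The interval ran from -0.35 to 0.52, whose further end is 1.43-fold. Fgfrl1, a receptor without a kinase domain that the mouse kidney needs to form, had 0.27, 0.31 and -0.07, a mean of 0.17 ± 0.21. It was the highest of the receptors, with an interval from -0.28 to 0.62. Fgfr4 had a mean of -0.23 ± 0.17 and was the one receptor with every array on the same side.

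Fgfr2, the receptor of the ureteric bud and also of the mesenchyme, was the lowest receptor and was poorly determined, at -0.45, -1.45 and 0.53, a mean of -0.46 ± 0.99. Its interval ran from -1.69 to 0.78, whose further end is 3.23-fold. Fgfr3 had -0.79, -1.35 and 1.09, a mean of -0.35 ± 1.28. In both genes arrays 1 and 2 were negative and array 3 was positive. Turning array 3 gave a mean of -0.81 ± 0.56 for Fgfr2, where limma gave an adjusted p of 0.895 and an unadjusted p of 0.046. Fgfr3 then had -1.08 ± 0.28, where limma gave an unadjusted p of 0.00719 and an adjusted p of 0.740. The docking protein gene Frs3 had 0.08, -1.10 and -1.01, a mean of -0.68 ± 0.66. Without array 1, which stood apart, its mean was -1.06. Limma then gave an unadjusted p of 0.0203 and an adjusted p of 0.5868. Leaving out that array, picked after its value was seen, narrows the spread by arithmetic.

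**Figure D2:**
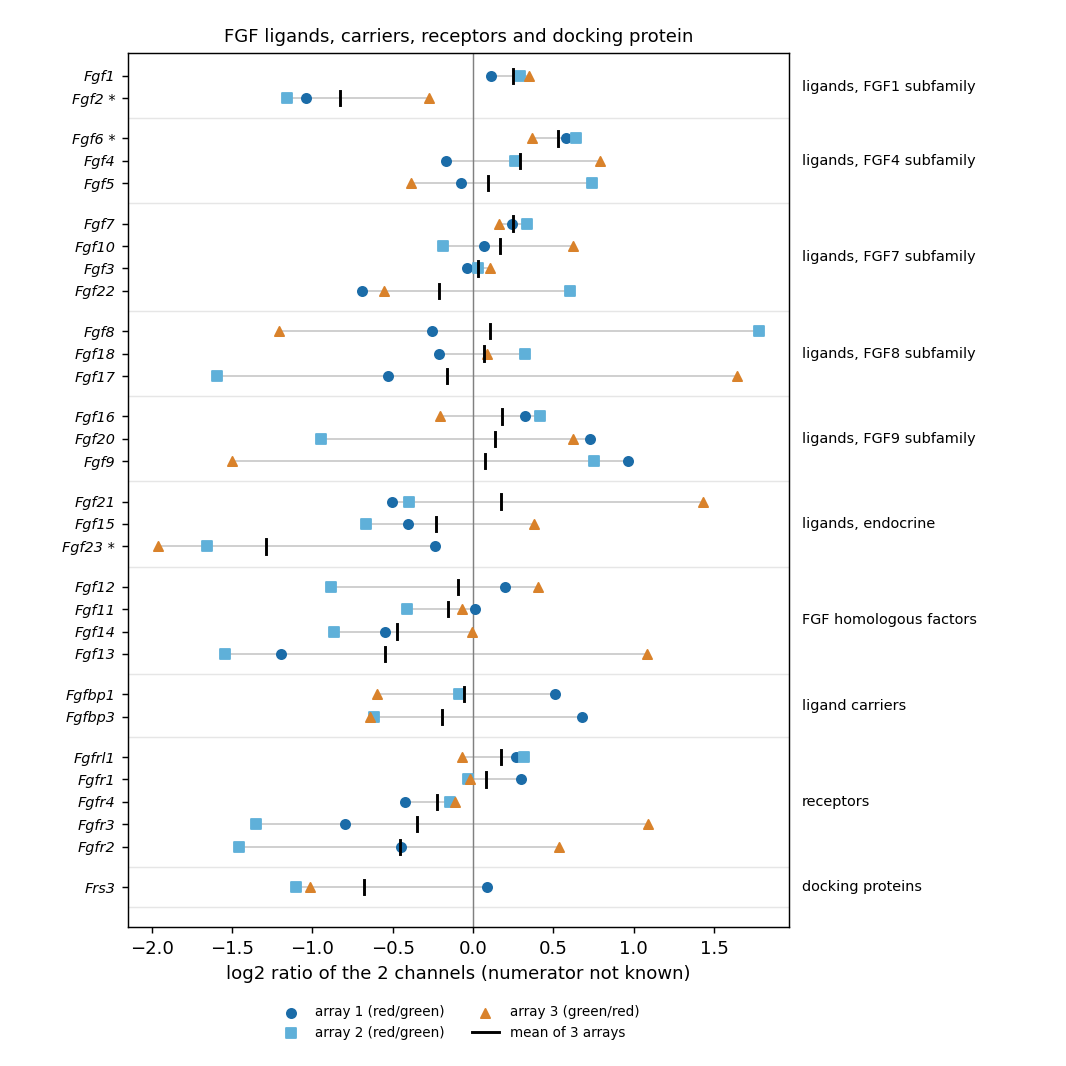
Log2 ratio on each array (circles array 1, squares array 2, triangles array 3) with the mean of the 3 arrays as a black bar, for the FGF ligands, homologous factors, carriers, receptors and docking protein; an asterisk marks an unadjusted p under 0.05 by limma. Fgf2, Fgf6 and Fgf23 carry the asterisk, and the arrays of Fgf8, Fgf9, Fgf13, Fgf17, Fgfr2 and Fgfr3 lie far apart on both sides of 0.

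Fgfr3, Fgf9, Fgf13 and Fgf17 shared a pattern: arrays 1 and 2 at least 0.5 in size on one side and array 3 at least 0.5 on the other. They are 4 of the 57 genes, or 7.02%, where 3.30% of all genes had that pattern. The reverse case, every array at least 0.5 in size on the same side, held for 2 of them, Etv2 and Dusp22, where it held for 9.11% of all genes. Without the size limit, array 3 stood opposite to both other arrays in 12 of the 57 genes, or 21.1%, and in 25.6% of all genes. The dye order changed with array 3 alone, so a term for it cannot be told apart from other differences of that array. Such a term gives array 3 the weight of arrays 1 and 2 together, so the means of these genes move toward array 3 by arithmetic. A fit with a term for the dye order moved the mean of Fgfr3 from -0.35 to 0.01, of Fgf13 from -0.55 to -0.14, of Fgf17 from -0.16 to 0.29 and of Fgf9 from 0.07 to -0.32. Fgfr3, Fgf17 and Fgf9 changed sign in it, and none of the 4 genes had an unadjusted p under 0.05 by limma. With array 3 turned, the genes that reached an unadjusted p under 0.05 by limma were Fgfr2, Fgfr3, Fgf9, Fgf13, Fgf17 and Dusp2, with adjusted p from 0.653 to 0.895. In each of them array 3 stood opposite to both others, so turning it enlarges the mean and narrows the spread by arithmetic.

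**Figure D3:**
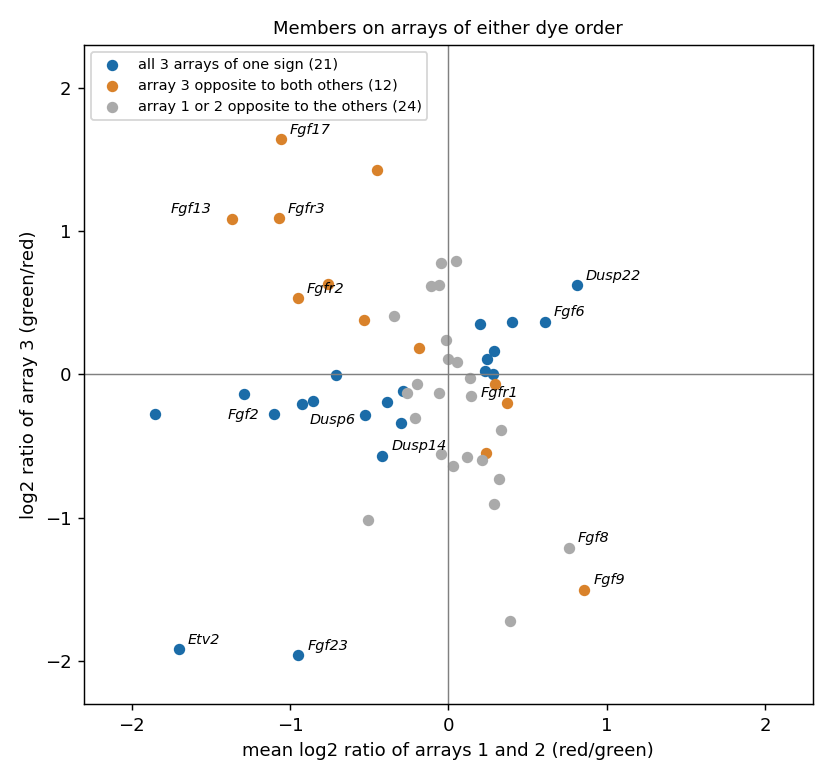
Mean log2 ratio of arrays 1 and 2 (dye order red/green, horizontal) against the log2 ratio of array 3 (green/red, vertical), 1 point for each of the 57 genes. The 21 genes in blue had the same sign on all arrays, the 12 in orange had array 3 opposite to both others, and the others, in grey, had array 1 or array 2 opposite.

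The genes that ERK switches on as its brakes did not share a side. Dusp6, the cytoplasmic phosphatase that removes the activating phosphates of ERK, had -0.87, -0.97 and -0.21, a mean of -0.69 ± 0.42, which is 1.61-fold. Its arrays were all negative, array 3 the least, and by limma the unadjusted p was 0.0372 and the adjusted p 0.227. Spry1, the Sprouty gene that limits budding of the ureter, had -0.34, -0.71 and -0.28, a mean of -0.44 ± 0.23. Every array was negative as well, at an unadjusted p of 0.0569 by limma and a 95% interval from -0.91 to 0.02. Of the Sprouty and Spred genes kept by the choice of symbols, which leaves out Spry2, the highest was Spry4. It had 0.07, -0.17 and 0.78, a mean of 0.23 ± 0.49. That mean was -0.29 with array 3 turned and -0.05 without array 3. Spred1 had 0.16 ± 0.21, although its probes had opposite signs on arrays 2 and 3, and Spred2 had 0.07 ± 0.15.

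The 3 relatives that the choice of symbols leaves out had means further from 0 than Dusp6, Spry1, Spry4, Spred1 and Spred2. Spry2 had 1.03, 1.08 and 1.15 on the arrays, Etv4 had 0.84, 0.98 and 0.62, and Dusp1, a nuclear phosphatase of ERK, p38 and JNK, had -0.88, -1.58 and -0.33. Their unadjusted p-values by limma were 0.00155, 0.00689 and 0.0362, and the adjusted ones 0.149, 0.160 and 0.225. Their means went from 1.09 to 0.32 for Spry2, from 0.81 to 0.40 for Etv4 and from -0.93 to -0.71 for Dusp1 when array 3 was turned. Turning array 3 brings a mean nearer to 0 by arithmetic where every array has one sign, as here. Spry2 and Spry1 lay on opposite sides of 0 on each of the 3 arrays, and so did Etv4 and Dusp6.

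The 250 bases before the start of these genes are shown because Dusp6 and Spry1 lay on the side opposite to Spry2, and Etv2 and Dusp22 were the genes furthest from 0 on either side among those at an unadjusted p under 0.05. The sequences are those of RefSeq, build GRCm38.p6, written 5′ to 3′ on the gene's strand, with the ETS core letters GGAAG, or CTTCC for the other strand, in capitals.
Dusp6, chr10:99262981-99263230, plus strand: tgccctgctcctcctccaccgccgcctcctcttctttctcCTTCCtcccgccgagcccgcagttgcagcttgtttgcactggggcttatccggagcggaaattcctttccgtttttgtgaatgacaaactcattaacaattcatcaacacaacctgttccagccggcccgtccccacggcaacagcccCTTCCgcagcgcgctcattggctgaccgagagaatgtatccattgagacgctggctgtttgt
Spry1, chr3:37639697-37639946, plus strand: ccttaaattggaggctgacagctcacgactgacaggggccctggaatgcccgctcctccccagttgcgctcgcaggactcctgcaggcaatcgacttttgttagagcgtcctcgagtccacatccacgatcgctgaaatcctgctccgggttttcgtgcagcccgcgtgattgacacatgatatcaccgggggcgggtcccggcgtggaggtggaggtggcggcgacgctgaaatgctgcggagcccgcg
Spry2, chr14:105896820-105897069, minus strand: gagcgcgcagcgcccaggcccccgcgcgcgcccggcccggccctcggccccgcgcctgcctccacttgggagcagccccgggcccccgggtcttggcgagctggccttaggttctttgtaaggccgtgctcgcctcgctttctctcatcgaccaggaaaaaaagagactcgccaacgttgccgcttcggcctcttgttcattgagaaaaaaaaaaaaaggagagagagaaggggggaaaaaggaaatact
Etv2, chr7:30635853-30636102, minus strand: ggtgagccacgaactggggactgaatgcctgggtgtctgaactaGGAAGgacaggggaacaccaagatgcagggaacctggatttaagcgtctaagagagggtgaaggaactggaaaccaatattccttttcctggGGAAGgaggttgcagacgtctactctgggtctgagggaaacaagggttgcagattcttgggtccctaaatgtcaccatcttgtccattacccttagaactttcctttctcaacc
Dusp22, chr13:30659809-30660058, plus strand: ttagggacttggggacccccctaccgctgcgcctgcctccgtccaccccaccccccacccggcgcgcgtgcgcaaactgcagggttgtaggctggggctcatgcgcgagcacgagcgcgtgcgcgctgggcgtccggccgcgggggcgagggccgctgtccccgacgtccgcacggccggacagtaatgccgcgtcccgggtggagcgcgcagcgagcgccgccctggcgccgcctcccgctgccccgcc

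The letters GGAAG stood 2 times before Dusp6 and 2 times before Etv2, counting both strands, and 0 times before Spry1, Spry2 and Dusp22. RefSeq windows were matched for 45 of the 57 genes, 57 windows in all since some genes have several starts. At least 1 such match was found in 57.9% of these windows and in 65.1% of 21263 windows before protein-coding genes. By sign of the mean ratio, a match was found in at least 1 window of 18 of 30 negative genes and of 11 of 15 positive genes. The AP-1 letters TGANTCA, which read alike on both strands and do not overlap the ETS letters, were in 5.26% of the windows of these genes and in 6.13% of all. A match of letters is a description and not a binding site.

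The other phosphatases that dock on MAP kinases spread around 0. Dusp16, which acts on JNK, was the highest, at 0.29, 0.20 and 0.11, a mean of 0.20 ± 0.09. Dusp4, a nuclear phosphatase, had a mean of 0.19 ± 0.16, and in both genes all 3 arrays were positive. Dusp2, also nuclear, had -0.30 ± 0.87, Dusp10, which acts on p38 and JNK, had -0.32 ± 1.47 and Dusp8 had -0.11 ± 0.86, each with arrays on both sides of 0. Among these 6 genes 1 reached an unadjusted p under 0.05, Dusp6, or 16.7%, beside 19.6% of all genes.

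Of the 12 atypical phosphatases, small enzymes without the docking part and many of them with little action on ERK, 9 had a negative mean. Among all genes 50.2% had a negative mean. Dusp22, a regulator of JNK signalling, was the highest, at 0.69, 0.94 and 0.62, a mean of 0.75 ± 0.17, which is 1.68-fold. Its arrays were all positive, with an unadjusted p of 0.00835 and an adjusted p of 0.162 by limma. Dusp14 had -0.59, -0.24 and -0.57, a mean of -0.47 ± 0.20, with all arrays negative, at an unadjusted p of 0.0423 and an adjusted p of 0.240 by limma. The unadjusted p was above 0.05 with any 1 array left out, with a dye term, without variance moderation and with array 3 turned, where the mean was -0.09. Dusp21 was the lowest, at -0.38, -2.20 and -0.14, a mean of -0.91 ± 1.13, which rests on array 2. Dusp13 had -0.63 ± 0.47 and Dusp19 had 0.39 ± 0.32, each with every array on its side. The other 7, Dusp3, Dusp11, Dusp12, Dusp18, Dusp23, Dusp26 and Dusp28, had means from -0.24 to 0.04, and for Dusp12 the probes had means of -0.33 and 0.21.

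Without Etv4, which was positive on every array, the 5 ETS factors among the 57 genes had negative means, where 50.2% of all genes did. Of these, 4 were negative on every array, beside 22.5% of all genes. Etv2, which drives the first endothelial and blood cells, had -1.90, -1.51 and -1.92, a mean of -1.77 ± 0.23, which is 3.42-fold. Its arrays lay closer together than those of Etv3 and Fgf23, the other genes here with a mean past 1 in size. By limma the 95% interval ran from -2.24 to -1.31, with an unadjusted p of 0.00053 and an adjusted p of 0.149. Endothelial markers lay on the same side: all 8 measured had negative means, from -1.12 for Cldn5 to -0.14. Of the 8, 5 had an unadjusted p under 0.05 by limma, beside 9.69% of all genes that were negative at that level. The erythroid list had a median of -0.06, with 1 of its 6 genes negative at that level. Levels behind these ratios are unknown, and the part of endothelial RNA in the Etv2 ratio was not tested. The mean of Etv2 with array 3 turned was -0.50 ± 2.10.

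Etv3, a repressor, had -0.30, -3.40 and -0.28, a mean of -1.33 ± 1.80, so array 2 alone gave the size of its mean. Etv6, a repressor needed in blood formation, had -0.19, -0.41 and -0.34, a mean of -0.31 ± 0.11. Etv1, of the PEA3 group, had -0.13, -0.64 and -0.19, a mean of -0.32 ± 0.28, with every array negative. Etv5, which acts with Etv4 downstream of RET and FGF receptors in the ureteric bud, had -0.37, 1.01 and -0.73, a mean of -0.03 ± 0.92. A further Etv5 probe had a value on array 3 only, of 1.56, opposite to the first probe there. With that probe averaged in, or with array 3 turned or left out, the Etv5 mean was positive, at 0.35, 0.46 and 0.32, and without array 1 it was 0.14. With Etv4 counted, the ETS genes thus lay on both sides of 0.

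**Figure D4:**
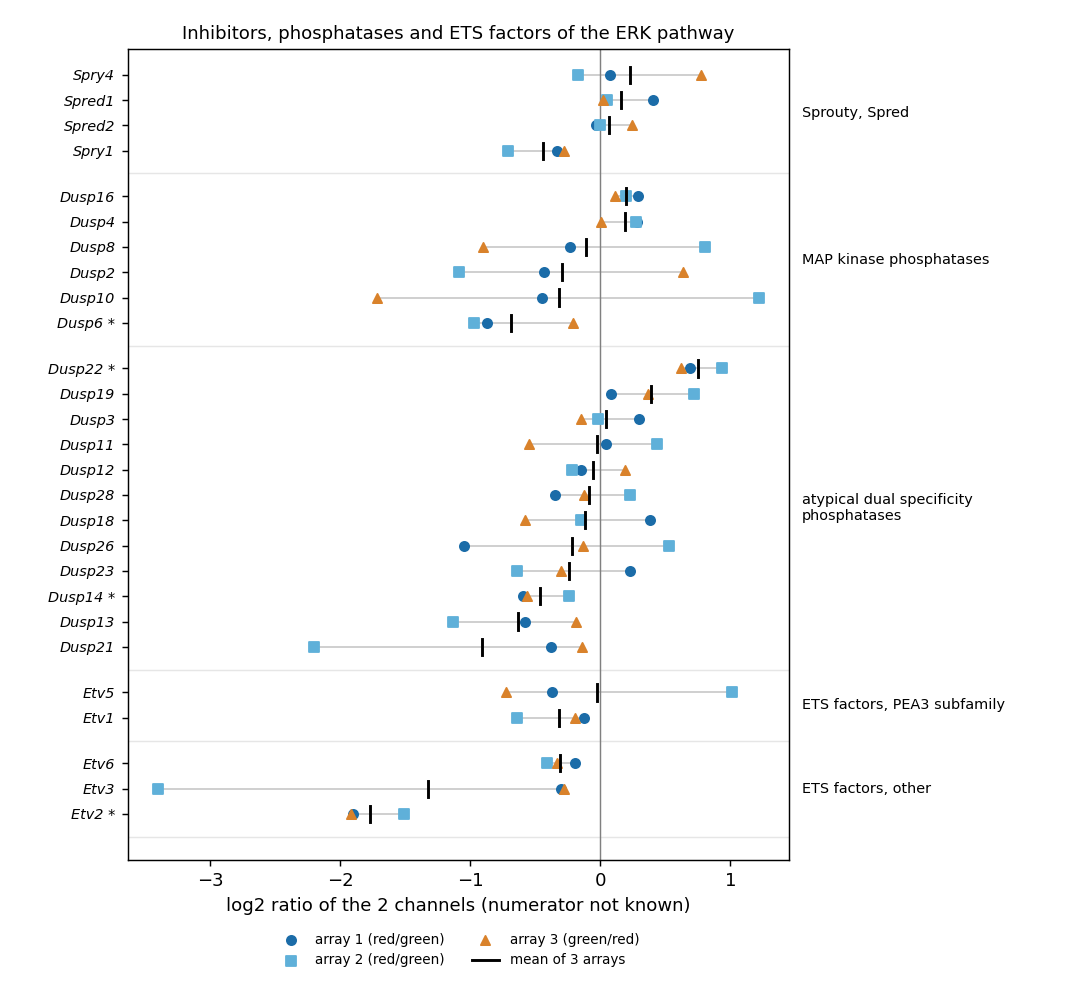
Log2 ratio on each array (circles array 1, squares array 2, triangles array 3) with the mean of the 3 arrays as a black bar, for the Sprouty and Spred genes, the phosphatases and the ETS factors; an asterisk marks an unadjusted p under 0.05 by limma. Dusp22 lies to the right of 0 and Dusp6, Dusp14 and Etv2 to the left on every array, while the size of Etv3 and Dusp21 comes from array 2.

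Genes around the receptor were taken from lists of known pathway parts. In the heparan sulfate list, whose products hold FGFs at the receptor, 5 of 18 genes reached an unadjusted p under 0.05 by limma and all 5 were negative, beside 9.69% of all genes that were negative at that level. They were the glypican genes Gpc3 at -0.61 ± 0.14, Gpc1 at -0.60 ± 0.20 and Gpc4 at -0.46 ± 0.15, the chain polymerase gene Ext1 at -0.48 ± 0.20 and the syndecan gene Sdc1 at -0.62 ± 0.36. All 5 had the same sign on every array, so turning array 3 brings their means nearer to 0 by arithmetic. The means were then -0.32 for Ext1, -0.31 for Gpc3, -0.06 for Gpc1, -0.06 for Gpc4 and 0.03 for Sdc1. The list's median was -0.08. Of 6 coreceptor and membrane modulator genes, 0 reached it, with means from -0.46 to 0.41. Of 17 adaptor and RAS to ERK cascade genes, 2 did, or 11.8% beside 19.6% of all genes: the phospholipase gene Plcg1 at -0.44 ± 0.09 and the ERK kinase gene Map2k1 at -0.42 ± 0.11. Of 13 transcripts that ERK signalling induces, 3 did, or 23.1%, which is near the share of all genes: the immediate early genes Ier2 at -1.67 ± 0.24 and Junb at -1.02 ± 0.27 and the AP-1 gene Fosl1 at -0.79 ± 0.26, while the list's median was 0.04. The means with array 3 turned were -0.08 for Plcg1, -0.08 for Map2k1, -0.57 for Ier2, -0.45 for Junb and -0.33 for Fosl1. These genes too had one sign on every array, so the same arithmetic applies. None of these passed adjustment over all genes.

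Marker lists of tissues and cell types are given by the same description, with 0 genes of any list at an adjusted p under 0.05 by limma. Of all genes, 9.89% were positive and 9.69% negative at an unadjusted p under 0.05. At that level, by limma, 3 of 13 genes of the metanephric mesenchyme and 5 of 5 of the renal stroma were positive. Of 11 ureteric bud genes 1 was positive, near the share of all genes, and 3 were negative, and of 4 early nephron genes 1 was positive and 1 negative. On the negative side were 7 of 9 limb and flank genes, 5 of 10 somite and muscle genes with 1 more positive, 4 of 5 gut and liver genes and 1 of 6 erythroid genes. Of 4 macrophage genes 2 were positive, and of 5 neuron and neural crest genes 1 was positive and 1 negative. The part of such other cells in the ratios of Fgf2, Dusp6 and Spry1, which lay on the side of the limb, muscle and endothelial lists, was not tested.

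**Figure D5:**
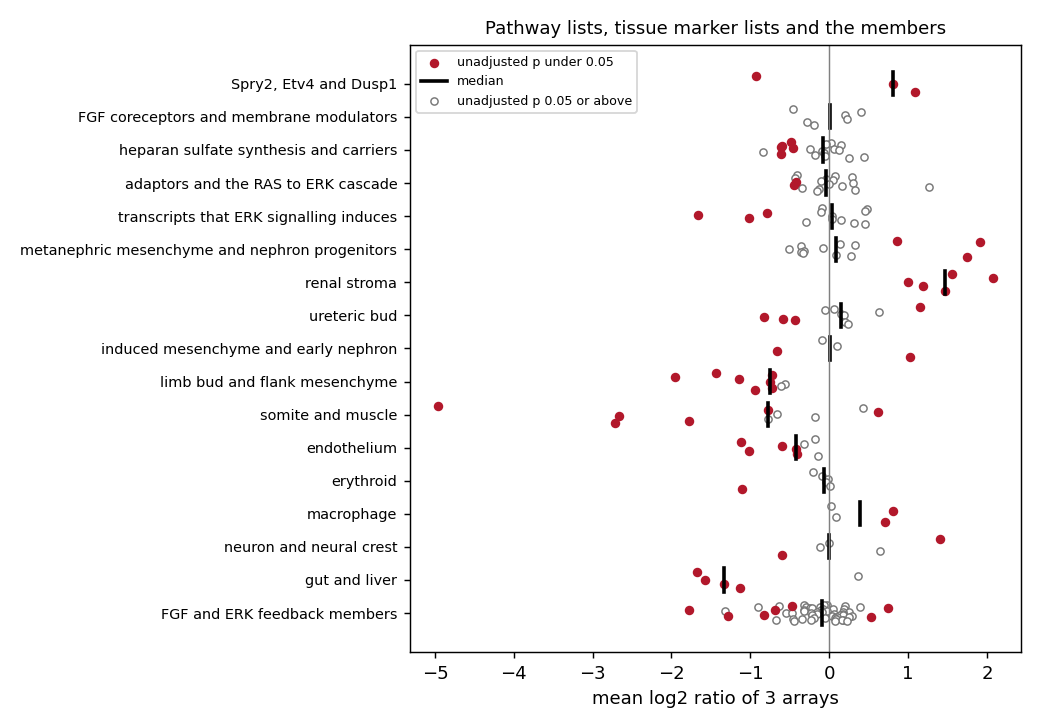
Mean log2 ratio of the 3 arrays for each gene of the pathway lists, the marker lists and the 57 FGF and ERK feedback genes (bottom), with red points at an unadjusted p under 0.05 by limma and the list's median as a black bar. The 57 genes centre on -0.09, while the renal stroma list lies to the right and the limb, muscle, endothelial and gut and liver lists lie to the left.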

How the data were processed

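The authors deposited, for each array, normalized log2 ratios between its channels. Per the labels' descriptions, spots were read with Imagene 5.5 and normalized by print-tip lowess, using 20% of the data at each point, and then between arrays. Control channel values under 10 were raised to 10, per the labels. No genome build is named in the labels. Of 21918 gene probes, 16656 had 1 symbol in the platform annotation, 137 several and 5125 none. Control spots were left out. Probes with a value on all 3 arrays were averaged per gene, and limma 3.58.1 (lmFit, eBayes; R 4.3.3) gave a two-sided test of each mean ratio against 0. Its p-values were adjusted by Benjamini-Hochberg over 14047 genes. The test was first checked on simulated independent noise with each gene's own spread. That simulation held no array or dye effect, so it cannot speak to such effects in these data. Intervals are 95% intervals of that fit, and values after ± are SDs over the arrays. An unadjusted p under 0.05 is used only to describe. Joins and figures used Python 3.11.15 and Matplotlib 3.10.9.

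The genes and lists were chosen with earlier results of these data known. Values on each array are given for genes at an unadjusted p under 0.05, for genes with a known part in kidney development, and for the highest and lowest of each role group of 3 or more. Other genes of the pathway are named at an unadjusted p under 0.05, at most 6 per list, besides Spry2, Etv4 and Dusp1. Genes singled out for their spread were chosen after their values were seen. Alternatives were median centring, scaling, a dye term, array 3 turned, limited extreme values, plain and robust variances, probe medians, values on at least 2 arrays and each array left out. No intensities were used, so background correction and a filter on dim spots were not tried.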

Additional observations from a re-analysis of the deposited data

How the results depend on the processing

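Under all 12 alternatives, 0 genes and 0 of the 57 FGF and ERK feedback genes passed an adjusted p of 0.05 by limma, which says little about stability with 3 arrays. The number of the 57 genes at an unadjusted p under 0.05 was 7 and ranged from 3 to 10 with an array left out. The number with the same sign on every array was 21 and went to 12 with array 3 turned. By construction those 12 are the genes where array 3 stood opposite to both others. The number was 33 with any 1 array left out, where fewer arrays have to agree. Their median of -0.09 was -0.13 with a dye term and -0.03837 with array 3 turned, and ranged from -0.08384 to -0.03786 with an array left out. With array 3 turned, Fgf23 went from -1.29 to 0.02162, and 16 further genes changed sign without reaching an unadjusted p under 0.05 in either fit. Centring, scaling, limited extremes, robust variances and probe medians changed the sign or the side of that threshold of 0 of the 57 genes. Part of this outcome was fixed in advance. For these genes probe medians equal probe means, limited extremes altered the value of Etv3 alone, and robust variances keep every mean. The cause of the changes above was not tested. The counts that follow include those 3 settings, which left the values of the 7 genes at that threshold as they were. Etv2 reached that threshold under 11 of 12 alternatives, Dusp22 under 10, Fgf6 under 9, Dusp6, Fgf2 and Fgf23 under 8 and Dusp14 under 6. The test already uses the pairing of the tissues, because each value is a ratio of both tissues on an array. No further paired analysis was made, as there is 1 group of arrays.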
